A study of Mus musculus with 18 samples.

Results

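PARP enzymes take NAD and attach its ADP-ribose part to proteins. Parp9, Parp10, Parp11, Parp12 and Parp14 belong to the branch of the family that adds single ADP-ribose units or, in the case of Parp9, has little activity alone, and Dtx3l is a ubiquitin ligase of the deltex family that binds Parp9. Genes of this branch are widely known to be induced by interferons and to act against viruses, whereas Parp1 and Parp2, which build long chains of ADP-ribose, serve DNA repair.

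These 6 genes were chosen by name and followed through bulk RNA sequencing of endothelial cells (ECs) from mouse breast tissue. All 6 were found among the 16248 genes of the expression table, and all 6 were among the 13983 genes tested. ECs were sorted as live cells without CD45 and with CD31, from female FVB mice. The normal mammary fat pad came from wild-type mice. MMTV-PyMT spontaneous tumours arose in mice whose transgene drives the polyoma middle T antigen from a viral promoter active in the mammary epithelium, and treatment began at 9 weeks of age. Implanted tumours were grown from cultured cells of MMTV-PyMT tumours in the fat pad of wild-type mice, which were aged 8 to 9 weeks at implantation. These hosts were therefore older at harvest. The labels give these ECs the wild-type genotype of the host. Each tissue was injected with phosphate-buffered saline (PBS) or with cGAMP, a cyclic dinucleotide that activates the innate immune protein STING, and was harvested 3 hours later. There were 6 groups with 3 libraries each, 18 in all, numbered as in the labels. Ages of the normal mice were not given in the sources used here.

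Levels are in FPKM, a fragment count divided by gene length and by library size, and a change is a difference of group means of log2(FPKM + 1). Each library held between 9068064 and 12058796 recovered reads. The denominator of the FPKM values was 1.09 to 1.16 times the recovered reads in normal ECs and 0.744 to 0.839 times in cGAMP-treated implanted ECs, so the deposited scaling lifted the values of that group relative to a scaling by reads. Summed levels of 8 endothelial markers lay between 645 and 1700 FPKM in the 18 libraries. Markers of other cells were also present. The 7 epithelial markers summed to 609 to 928 FPKM in MMTV-PyMT tumours and to 249 to 539 FPKM elsewhere, and the 6 mural cell markers summed to 801 to 1110 FPKM in the normal tissue and to 169 to 432 FPKM in the tumours. The 5 fibroblast markers summed to 47.3 to 89.2 FPKM in normal, 110 to 174 FPKM in MMTV-PyMT and 234 to 602 FPKM in implanted ECs, where implanted cGAMP 1 and 2 had 489 and 602 FPKM. The 9 leukocyte markers listed, with Ptprc, the gene of CD45, among them, summed to 273 FPKM in implanted cGAMP 2 and to 23.5 to 75.2 FPKM in the other libraries. The remaining 2 leukocyte markers and the 4 adipocyte markers were not analysed here. In bulk samples, fewer cells of a type and less RNA per cell cannot be told apart.

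Of the 6 genes, 3 lie side by side on chromosome 16 of the mm10 (GRCm38) genome, in the order Parp14 (chr16:35832874-35871544, minus strand), Dtx3l (chr16:35926511-35939151, minus strand) and Parp9 (chr16:35938470-35972605, plus strand). Dtx3l and Parp9 start head to head, and their annotated exons share 458 bases, 8.0% of the exon length of Dtx3l and 9.4% of that of Parp9. The sources do not say if strand was used in counting, so reads on the shared bases are uncertain for both genes. Parp10 is on chromosome 15 (chr15:76231174-76243441, minus strand), where 205 exon bases, 4.8% of its exons, also belong to Plec on the same strand. Parp12 (chr6:39086410-39118349, minus strand) and Parp11 (chr6:127446840-127494261, plus strand) lie far apart on chromosome 6. All 6 are annotated as protein-coding.

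Type I interferon acts through transcription factors that bind a DNA element called ISRE, and type II interferon acts through an element called GAS. A RefSeq table of promoter windows (GRCm38.p6, 250 bases before to 50 bases after each gene start) held 4 windows for 3 of the genes, which were Dtx3l, Parp12 and Parp11 with 2 starts. Parp9, Parp10 and Parp14 had no entry. Both strands were searched for GAAA and GAAA with any 2 bases between them as the ISRE and for TTCNNNGAA as the GAS element. The first was found in 1131 of all 32851 windows (3.44%), the second in 2726 (8.3%) and both in 149 (0.454%). Of the 4 windows, the one at the upstream start of Parp11 held both, and the windows of Dtx3l, Parp12 and the downstream start of Parp11 held neither. The Parp11 windows are shown because Parp11 had the widest range of responses between tissues, and Parp12 is shown beside them as a gene with a large response whose window had no match. Each run covers the bases from position -160 to position -10 before the start, 5′ to 3′ on the strand of the gene. Capitals mark the ISRE match on the reverse strand (positions -44 to -35) and the GAS match (positions -37 to -29), which overlap.
Parp11, upstream start (chr6:127446680-127446830, plus strand): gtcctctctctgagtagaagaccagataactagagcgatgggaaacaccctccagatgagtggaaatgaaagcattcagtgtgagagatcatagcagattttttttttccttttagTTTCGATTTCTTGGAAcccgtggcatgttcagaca
Parp11, downstream start (chr6:127453467-127453617, plus strand): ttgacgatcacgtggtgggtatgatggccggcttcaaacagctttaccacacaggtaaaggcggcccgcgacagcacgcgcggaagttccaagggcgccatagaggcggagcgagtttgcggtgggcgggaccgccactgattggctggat
Parp12 (chr6:39118359-39118509, minus strand): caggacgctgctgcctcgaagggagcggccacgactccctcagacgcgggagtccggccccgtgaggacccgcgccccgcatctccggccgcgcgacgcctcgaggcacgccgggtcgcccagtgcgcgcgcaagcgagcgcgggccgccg
The starts of Parp11 are 6787 bases apart. A match says that these letters are in the window, and the table does not tell which start ECs used.

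The first question was how far cGAMP moved the 6 genes in each tissue. In normal ECs 5 of the 6 genes rose, all of them by at least 2-fold, and Parp11 did not pass the test. In MMTV-PyMT ECs all 6 rose, 5 of them by at least 2-fold, and in implanted ECs all 6 rose by at least 2-fold. The threshold for a pass was 0.05 on p-values from limma, adjusted over all tested genes by the Benjamini-Hochberg method. Of all tested genes, 13.7% passed as higher in the normal tissue, 7.42% in the spontaneous and 20.3% in the implanted tumours, and 3.02%, 2.49% and 6.13% did so with a log2 change of at least 1. Medians over the 6 genes were 1.42, 2.07 and 2.37 on the log2 scale, in the order of normal, MMTV-PyMT and implanted ECs, beside medians of −0.05, −0.04 and −0.01 over all tested genes.

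**Figure D1:**
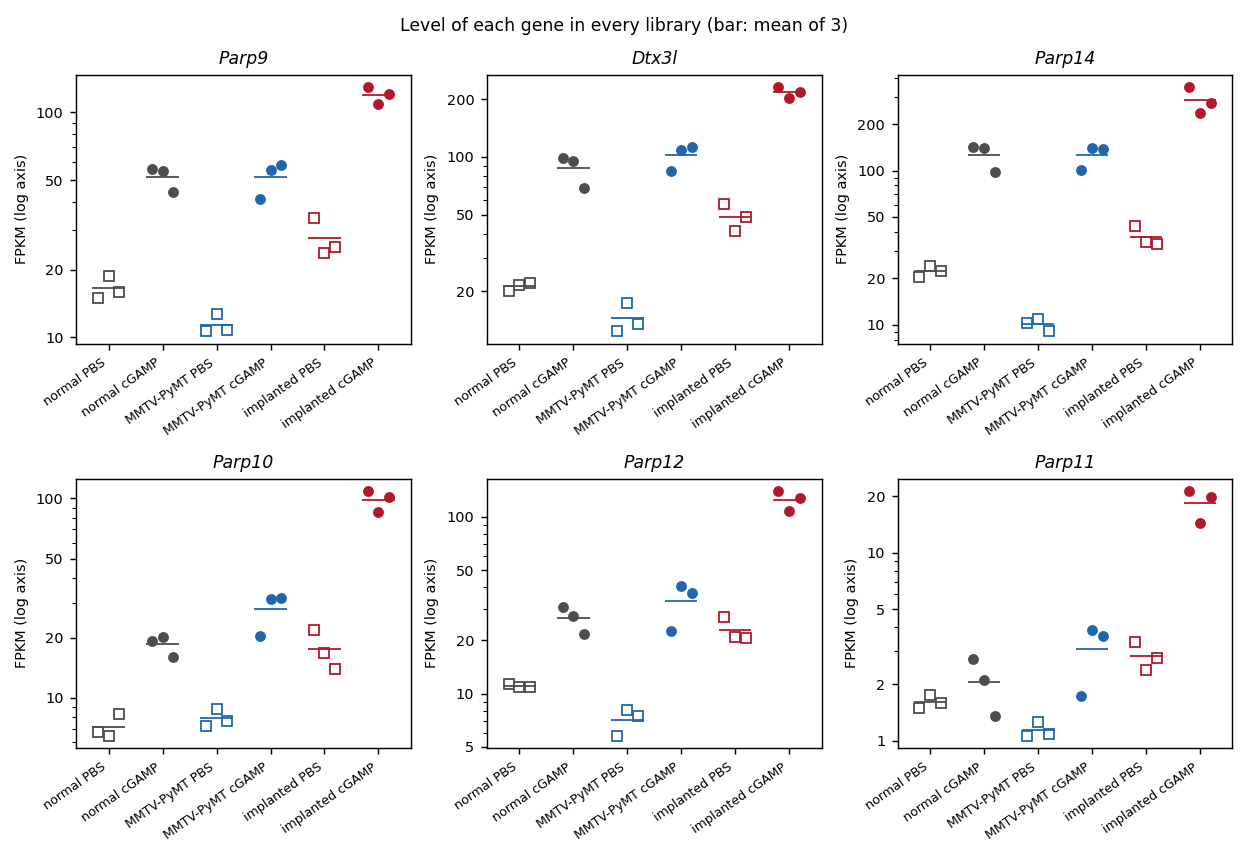
FPKM (log axis) of each gene in all 18 libraries, with open squares for PBS, filled circles for cGAMP and a bar at the mean of 3. Every cGAMP library lay above the PBS libraries of its tissue, except for Parp11 in normal ECs. How many of all tested genes separate in this way was not counted. On the deposited scaling, the 3 cGAMP-treated implanted libraries were the highest of the 18 for each gene.

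Parp14, a large PARP with macrodomains that bind ADP-ribose, is known for its part in Stat6 signalling and in macrophage responses to interferon. Normal ECs had 20.3, 24.0 and 22.3 FPKM under PBS and 143, 140 and 97.6 FPKM under cGAMP. MMTV-PyMT ECs had 10.2, 10.9 and 9.06 FPKM under PBS and 100, 141 and 137 FPKM under cGAMP. Implanted ECs had 43.7, 34.3 and 33.3 FPKM under PBS and 349, 235 and 274 FPKM under cGAMP. Within each tissue the groups did not overlap. The share of all tested genes with such separation was not counted, here or for the genes below. The lowest cGAMP library was 4.07 times the highest PBS library in normal ECs, 9.24 times in MMTV-PyMT and 5.39 times in implanted ECs. Parp14 had the largest change of the 6 genes in each tissue. Its log2 change was 2.44 ± 0.17 (SE) in normal ECs (adjusted p = 5.89e-08, limma), 3.51 ± 0.17 in MMTV-PyMT ECs (adjusted p = 3.84e-10) and 2.91 ± 0.17 in implanted ECs (adjusted p = 2.22e-09).

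The cGAMP-treated normal and MMTV-PyMT ECs ended at nearly the same mean of Parp14, 127 ± 25.2 and 126 ± 22.4 FPKM (SD, n = 3), with overlapping libraries. They had started from 22.2 ± 1.84 and 10.1 ± 0.918 FPKM under PBS (SD, n = 3), with no overlap. The fold of the means was therefore 5.70 in normal and 12.6 in MMTV-PyMT ECs. Implanted ECs had a fold of 7.72.

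Dtx3l and Parp9 make a complex in which Dtx3l is the ubiquitin ligase and the macrodomains of Parp9 bind ADP-ribose, and both are known as interferon targets. Dtx3l was at 20.2, 21.6 and 22.0 FPKM in PBS-treated normal ECs and at 98.9, 95.6 and 68.9 FPKM after cGAMP. The MMTV-PyMT libraries had 12.4, 17.5 and 13.6 FPKM under PBS and 85.0, 108 and 113 FPKM after cGAMP. The implanted libraries had 56.8, 41.3 and 49.0 FPKM under PBS and 232, 202 and 217 FPKM after cGAMP. No cGAMP library overlapped the PBS libraries of its tissue. The log2 change was 1.98 ± 0.15 (SE) in normal ECs (adjusted p = 1.66e-07, limma), 2.74 ± 0.15 in MMTV-PyMT ECs (adjusted p = 2.32e-09) and 2.13 ± 0.15 in implanted ECs (adjusted p = 2.03e-08).

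Parp9 was at 14.9, 18.7 and 16.0 FPKM in PBS-treated normal ECs and at 56.0, 55.1 and 44.2 FPKM after cGAMP. Its level in MMTV-PyMT ECs was 10.6, 12.7 and 10.7 FPKM under PBS and 41.2, 55.3 and 58.3 FPKM after cGAMP. Its level in implanted ECs was 34.0, 23.8 and 25.3 FPKM under PBS and 130, 109 and 120 FPKM after cGAMP. Again the groups of a tissue did not overlap. The log2 change was 1.59 ± 0.15 (SE) in normal ECs (adjusted p = 1.31e-06, limma), 2.08 ± 0.15 in MMTV-PyMT ECs (adjusted p = 4.31e-08) and 2.09 ± 0.15 in implanted ECs (adjusted p = 1.82e-08).

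Parp10, which adds single ADP-ribose units and carries ubiquitin-interacting motifs, was at 6.72, 6.47 and 8.35 FPKM in PBS-treated normal ECs and at 19.2, 20.3 and 16.1 FPKM after cGAMP. For MMTV-PyMT ECs it was at 7.26, 8.76 and 7.70 FPKM under PBS and at 20.4, 31.4 and 31.5 FPKM after cGAMP. For implanted ECs it was at 22.0, 16.8 and 14.0 FPKM under PBS and at 109, 85.6 and 102 FPKM after cGAMP. The treated libraries lay above the PBS libraries in each tissue, and the step was widest in implanted ECs. The log2 change was 1.26 ± 0.17 (SE) in normal ECs (adjusted p = 6.18e-05, limma), 1.67 ± 0.17 in MMTV-PyMT ECs (adjusted p = 3.70e-06) and 2.44 ± 0.17 in implanted ECs (adjusted p = 1.64e-08).

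Parp12, an antiviral PARP with zinc fingers, was at 11.3, 11.0 and 10.9 FPKM in PBS-treated normal ECs and at 30.8, 27.4 and 21.7 FPKM after cGAMP. Under PBS, MMTV-PyMT ECs had 5.77, 8.01 and 7.43 FPKM, and after cGAMP 22.7, 40.5 and 37.0 FPKM. Implanted ECs had 27.2, 20.9 and 20.7 FPKM under PBS and 140, 108 and 128 FPKM after cGAMP. The PBS-treated implanted ECs overlapped the cGAMP-treated normal ECs. The log2 change was 1.18 ± 0.19 (SE) in normal ECs (adjusted p = 0.000198, limma), 2.06 ± 0.19 in MMTV-PyMT ECs (adjusted p = 7.13e-07) and 2.41 ± 0.19 in implanted ECs (adjusted p = 4.05e-08).

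Parp11, which is known to modify the ubiquitin ligase that removes the interferon receptor Ifnar1, was the lowest of the 6 genes in every library. In normal ECs it was at 1.48, 1.74 and 1.58 FPKM under PBS and at 2.71, 2.10 and 1.35 FPKM after cGAMP. MMTV-PyMT ECs stood at 1.06, 1.26 and 1.09 FPKM under PBS and at 1.73, 3.90 and 3.59 FPKM after cGAMP. Implanted ECs stood at 3.35, 2.36 and 2.75 FPKM under PBS and at 21.3, 14.3 and 19.7 FPKM after cGAMP. The groups overlapped in normal ECs, where 1 treated library lay below all PBS libraries, and did not overlap in the tumours. The log2 change was 0.21 ± 0.20 (SE) in normal ECs, with a 95% interval from −0.23 to 0.64 (adjusted p = 0.474, limma). It was 0.89 ± 0.20 in MMTV-PyMT ECs (adjusted p = 0.00982) and 2.34 ± 0.20 in implanted ECs (adjusted p = 1.94e-07).

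Behind these values stood 96 to 1401 recovered reads per library for Parp11 and 306 to 27189 for the other genes. The added 1 FPKM understates the changes of Parp11, whose fold of means was 1.28 in normal ECs, 2.71 in MMTV-PyMT and 6.54 in implanted ECs. In MMTV-PyMT ECs the call for Parp11 rested on the 2 higher treated libraries, with an adjusted p of 0.0643 without MMTV-PyMT cGAMP 2 and of 0.0529 without MMTV-PyMT cGAMP 3 (limma).

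In each treated group a single library was the lowest for all 6 genes. Normal cGAMP 3 was the lowest treated normal library for all 6 genes, and MMTV-PyMT cGAMP 1 was the lowest treated MMTV-PyMT library for all 6. In implanted ECs the lowest treated library for all 6 genes was implanted cGAMP 2, the library with the highest leukocyte and fibroblast markers. It also had the lowest endothelial and highest epithelial markers of its group, 1040 and 539 FPKM. The same held for MMTV-PyMT cGAMP 1 in its group, at 732 and 847 FPKM. Normal cGAMP 3 had the highest endothelial and lowest epithelial markers of its group, at 970 and 355 FPKM. The part of these markers in the result was not tested. Without implanted cGAMP 2 the log2 changes in implanted ECs were 2.15 for Parp9, 2.18 for Dtx3l and 3.04 for Parp14. They were 2.54 for Parp10, 2.51 for Parp12 and 2.50 for Parp11. Leaving out the lowest treated library must raise each change, so the rise itself carries no information on the markers. Implanted cGAMP 1 had the next highest fibroblast markers and was the highest library for all 6 genes, so leaving it out must lower each change. The log2 changes were then 2.03 for Parp9, 2.08 for Dtx3l and 2.75 for Parp14. They were 2.36 for Parp10, 2.32 for Parp12 and 2.23 for Parp11.

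**Figure D2:**
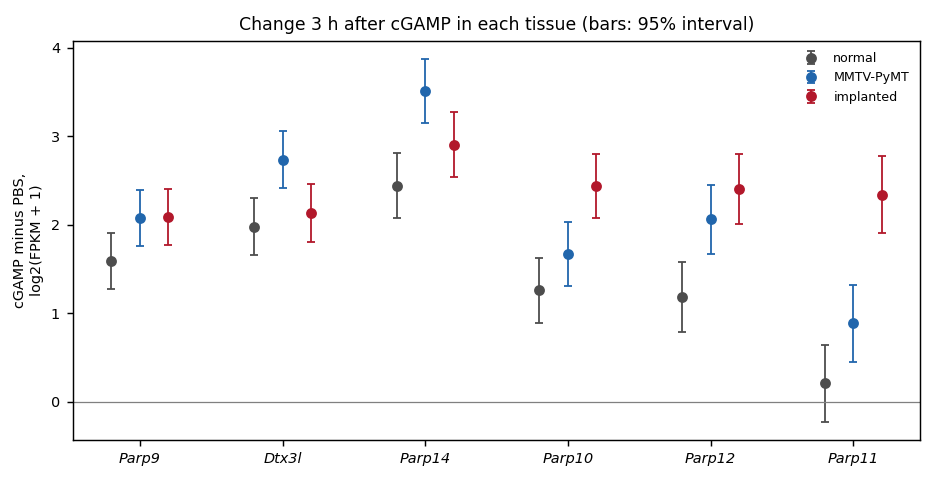
Log2 change from PBS to cGAMP for each gene in the 3 tissues, on the log2(FPKM + 1) scale, with bars for 95% intervals from the fit over 18 libraries. Parp14 was highest in each tissue, and Parp11 ran from 0.21 in normal to 2.34 in implanted ECs.

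The next question was whether the response differed between tissues, which was tested as a difference of log2 changes. Between implanted and normal ECs, 3 of the 6 genes differed and all 3 responded more in implanted ECs, where 12.5% of all tested genes passed in that direction. The difference was 2.13 ± 0.29 (SE) for Parp11 (adjusted p = 0.000133, limma), 1.22 ± 0.26 for Parp12 (adjusted p = 0.00403) and 1.18 ± 0.24 for Parp10 (adjusted p = 0.00316). Parp9, Parp14 and Dtx3l, the 3 neighbours on chromosome 16, did not pass, with differences of 0.50, 0.46 and 0.15 and 95% intervals from 0.05 to 0.94, from −0.05 to 0.98 and from −0.31 to 0.62. Parp9 passed without implanted PBS 1 (0.65, adjusted p = 0.0367, limma). With quantile normalization the differences of Parp10 and Parp12 were 0.63 and 0.68 and no longer passed (adjusted p = 0.0625 and 0.0726, limma).

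Between MMTV-PyMT and normal ECs, 3 genes passed as more responsive in MMTV-PyMT ECs, beside 5.48% of all tested genes. They were Parp14 with a difference of 1.07 ± 0.24 (SE, adjusted p = 0.0140, limma), Dtx3l with 0.76 ± 0.22 (adjusted p = 0.0420) and Parp12 with 0.88 ± 0.26 (adjusted p = 0.0487). Parp9, Parp11 and Parp10 had differences of 0.49, 0.68 and 0.41 and did not pass (adjusted p = 0.165, 0.163 and 0.324), although Parp11 passed without MMTV-PyMT cGAMP 1 (0.94, adjusted p = 0.0233). The calls for Dtx3l and Parp12 were lost under many of the settings tried. Without MMTV-PyMT cGAMP 3 the adjusted p reached 0.109 for Dtx3l and 0.123 for Parp12 (limma). Parp14 passed under all settings, with adjusted p from 0.00545 to 0.0428. In MMTV-PyMT ECs the epithelial markers summed to 838 to 928 FPKM under PBS and to 609 to 847 FPKM under cGAMP. Endothelial markers there summed to 645 to 801 and 732 to 1010 FPKM, in the same order. In normal ECs the epithelial markers summed to 326 to 436 and 355 to 430 FPKM. The endothelial markers there summed to 958 to 1100 and 898 to 970 FPKM. Their part in the result was not tested.

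Between implanted and MMTV-PyMT ECs, Parp11 alone passed, with a difference of 1.45 ± 0.29 (SE, adjusted p = 0.00401, limma), beside 7.34% of all tested genes that passed as more responsive in implanted ECs. Parp10 had a difference of 0.77 ± 0.24 (adjusted p = 0.0537), and Dtx3l and Parp14 had differences of −0.61 ± 0.22 (adjusted p = 0.0886) and −0.60 ± 0.24 (adjusted p = 0.128). With scaling by total reads Dtx3l and Parp14 passed as less responsive in implanted ECs, at −0.80 each (adjusted p = 0.0203 and 0.0253). With quantile normalization they passed in the same direction, at −1.06 and −1.09 (adjusted p = 0.00415 and 0.004, limma). Dtx3l also passed without MMTV-PyMT PBS 2 or MMTV-PyMT cGAMP 1 (adjusted p = 0.0438 and 0.0426). Parp10 passed with a filter at a mean FPKM of 5 (adjusted p = 0.0384) and without MMTV-PyMT cGAMP 2, MMTV-PyMT cGAMP 3, implanted PBS 1 or implanted cGAMP 2 (adjusted p = 0.0459, 0.0467, 0.0197 and 0.0367), and its adjusted p reached 0.407 under the other settings. These 3 sets of differences share libraries and are given side by side only.

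Under PBS, before any agonist, the genes already stood at different levels. In implanted ECs all 6 were higher than in normal ECs, where 25% of all tested genes passed in that direction. The log2 differences were 1.17 ± 0.17 (SE) for Parp10 (adjusted p = 3.92e-05, limma), 1.16 ± 0.15 for Dtx3l (adjusted p = 1.42e-05) and 0.98 ± 0.19 for Parp12 (adjusted p = 0.000387). They were 0.71 ± 0.17 for Parp14 (adjusted p = 0.00283), 0.70 ± 0.15 for Parp9 (adjusted p = 0.00102) and 0.55 ± 0.20 for Parp11 (adjusted p = 0.0363). The call for Parp11 was lost without normal PBS 1, 2 or 3 (adjusted p = 0.0917, 0.0564 and 0.0800), without implanted PBS 1 or 3 (adjusted p = 0.128 and 0.0691) and with scaling by total reads (adjusted p = 0.0797). Fibroblast markers summed to 234 to 269 FPKM in implanted and 68.7 to 79.6 FPKM in normal ECs, and mural cell markers to 202 to 244 and 991 to 1110 FPKM, without overlap. The leukocyte markers overlapped, at 31.8 to 75.2 FPKM in implanted and 29.0 to 63.7 FPKM in normal ECs, and so did the endothelial and epithelial markers. Their part in the result was not tested.

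In MMTV-PyMT ECs under PBS, 4 of the 6 genes were lower than in normal ECs, beside 26.6% of all tested genes. Parp14 fell furthest below, with a log2 difference of −1.07 ± 0.17 (SE, adjusted p = 7.36e-05, limma). It was followed by Parp12 with −0.59 ± 0.19 (adjusted p = 0.0126), Dtx3l with −0.54 ± 0.15 (adjusted p = 0.00737) and Parp9 with −0.50 ± 0.15 (adjusted p = 0.00895). The call for Parp12 was lost without MMTV-PyMT PBS 1 (−0.47, adjusted p = 0.0624). Parp10 and Parp11 did not pass, with differences of 0.13 and −0.28 (adjusted p = 0.553 and 0.253). The summed endothelial markers were also lower there, at 645 to 801 FPKM against 958 to 1100 FPKM in normal ECs, and the summed epithelial markers were higher, at 838 to 928 FPKM against 326 to 436 FPKM. Fibroblast markers were higher, at 110 to 174 FPKM against 68.7 to 79.6 FPKM, and mural cell markers lower, at 221 to 306 FPKM against 991 to 1110 FPKM. Their part in the result was not tested.

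Between both tumour types under PBS, all 6 genes were higher in implanted ECs, beside 20.8% of all tested genes. The log2 differences ran from 0.83 ± 0.20 (SE) for Parp11 (adjusted p = 0.00377, limma) to 1.78 ± 0.17 for Parp14 (adjusted p = 1.26e-06), with Dtx3l at 1.69, Parp12 at 1.57, Parp9 at 1.20 and Parp10 at 1.04. Endothelial markers summed to 1000 to 1270 FPKM in implanted and 645 to 801 FPKM in MMTV-PyMT ECs under PBS. Fibroblast markers summed to 234 to 269 and 110 to 174 FPKM, leukocyte markers to 31.8 to 75.2 and 21.4 to 31.6 FPKM and epithelial markers to 360 to 508 and 838 to 928 FPKM, in the same order and without overlap, and mural cell markers overlapped. Their part in the result was not tested.

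Ordered by mean, cGAMP-treated implanted ECs were the highest group for each of the 6 genes, and their libraries did not overlap the next group. The order is that of the deposited FPKM, whose scaling lifted this group relative to a scaling by reads. How many of all genes show such separation was not counted. PBS-treated MMTV-PyMT ECs were the lowest group for 5 genes, and PBS-treated normal ECs for Parp10, where the lowest groups overlapped. For Parp9, Dtx3l and Parp14, every cGAMP group lay above every PBS group without overlap. For Parp10 and Parp12, PBS-treated implanted ECs (17.6 ± 4.07 and 22.9 ± 3.67 FPKM, SD, n = 3) overlapped cGAMP-treated normal ECs (18.5 ± 2.19 and 26.7 ± 4.58 FPKM, SD, n = 3). For Parp11 the 4 groups between the lowest and the highest overlapped their neighbours in the order.

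FPKM are divided by gene length, so the genes are set side by side here. Which starts ECs used is not known, and reads on the bases shared by Dtx3l and Parp9 are uncertain. Comparisons between genes are therefore approximate. The summed level of the 6 genes was 79.9 ± 4.41 FPKM (SD, n = 3) in normal ECs, 52.0 ± 6.25 in MMTV-PyMT and 157 ± 25.9 in implanted ECs under PBS. Under cGAMP it was 313 ± 55.3, 344 ± 63.0 and 866 ± 114 FPKM (SD, n = 3). Parp14 supplied 27.8% of that sum in normal ECs, 19.4% in MMTV-PyMT and 23.6% in implanted ECs under PBS, and 40.3%, 36.7% and 32.9% under cGAMP. In none of the tissues did the libraries of both treatments overlap in the share of Parp14. The share of Parp9 went the other way, from 20.7% to 16.6% in normal ECs, from 21.9% to 15.0% in MMTV-PyMT and from 17.6% to 13.9% in implanted ECs. In implanted ECs the shares of Parp10 and Parp12 were 11.2% and 14.6% under PBS and 11.4% and 14.5% under cGAMP. In normal ECs the share of Parp12 was 13.9% under PBS and 8.52% under cGAMP.

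Because Dtx3l and Parp9 start head to head and make 1 complex, their ratio was followed on its own. Dtx3l stood above Parp9 in all 18 libraries. In normal ECs the ratio of their FPKM was 1.35, 1.16 and 1.38 under PBS and 1.77, 1.73 and 1.56 under cGAMP. In MMTV-PyMT ECs it was 1.17, 1.38 and 1.26 under PBS and 2.07, 1.96 and 1.94 under cGAMP. In implanted ECs it was 1.67, 1.74 and 1.93 under PBS and 1.78, 1.85 and 1.81 under cGAMP. The groups did not overlap in normal and MMTV-PyMT ECs and overlapped in implanted ECs, whose PBS libraries lay above every PBS library of the other tissues. Averaged over the tissues, the log2 ratio rose by 0.35 from PBS to cGAMP (exact permutation test within tissues, 2-sided, p = 0.002 over 8000 arrangements). By tissue the log2 ratio changed by 0.38 (normal), 0.65 (MMTV-PyMT) and 0.03 (implanted), and the difference between tissues was not tested.

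**Figure D3:**
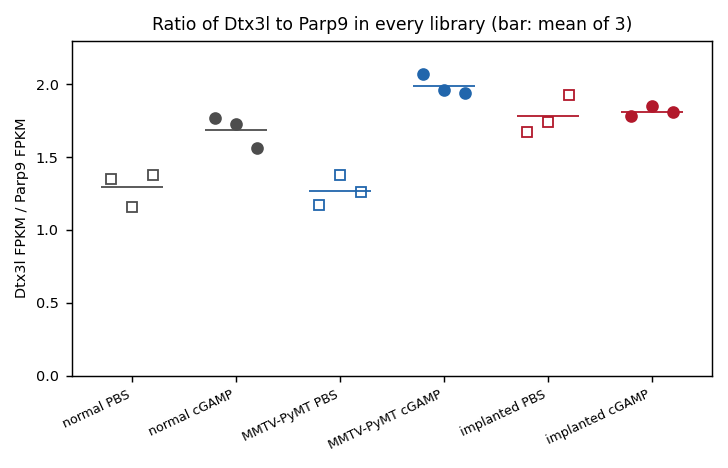
Ratio of Dtx3l to Parp9 (FPKM over FPKM) in all 18 libraries, with open squares for PBS, filled circles for cGAMP and a bar at the mean of 3. Means went from 1.29 to 1.69 in normal and from 1.27 to 1.99 in MMTV-PyMT ECs, and were 1.78 and 1.81 in implanted ECs.

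The protein-coding genes around the 6 were looked at next, with 3 on each side of each gene or cluster. Of these 24 neighbours, 16 were tested. Of the 16, 6 rose and 1 fell in the normal tissue, 4 rose in the spontaneous and 9 in the implanted tumours, and none fell in either tumour. Among all tested genes 13.7%, 7.42% and 20.3% rose in the same order, and the share of falls was not computed. Around the chromosome 16 cluster, Hspbap1, 4397 bases beyond the downstream end of Parp14, rose in all 3 tissues, with log2 changes of 1.02, 0.75 and 0.90 (normal, MMTV-PyMT, implanted) (adjusted p = 6.82e-06, 0.000234 and 9.08e-06, limma). On the other side Kpna1, which encodes an importin of the nuclear transport machinery, lay 6145 bases beyond Parp9. Its changes were 0.55 in the normal tissue (adjusted p = 0.000121), 0.13 in MMTV-PyMT (adjusted p = 0.337) and 0.21 in implanted ECs (adjusted p = 0.0479). Farther out, Slc49a4, Sema5b and Wdr5b did not pass in any tissue, and Fam162a fell by 0.67 on the log2 scale in normal ECs (adjusted p = 0.000310).

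**Figure D4:**
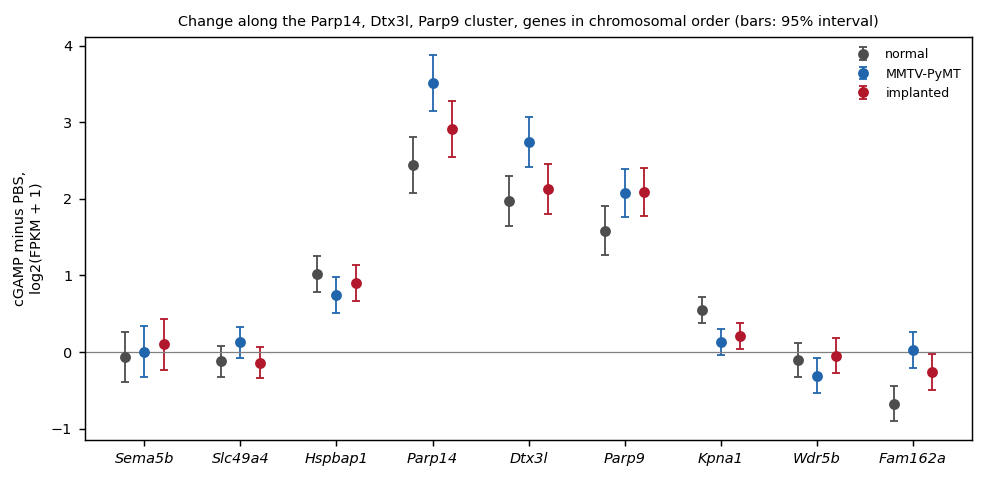
Log2 change from PBS to cGAMP of the tested genes along the cluster of Parp14, Dtx3l and Parp9, in chromosomal order and not to distance, with bars for 95% intervals. The 3 members lie between 1.59 and 3.51, Hspbap1 between 0.75 and 1.02 and the other neighbours between −0.67 and 0.55.

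Beside Parp12, Tbxas1, the thromboxane synthase gene 1825 bases away, rose in each tissue, by log2 changes of 1.43, 1.05 and 1.50 in the same order (adjusted p = 1.66e-07, 5.14e-06 and 2.81e-08, limma). On the same side Hipk2, a protein kinase gene, had changes of 0.26, 0.14 and 1.13 (adjusted p = 0.0486, 0.389 and 1.46e-07). On the other side Kdm7a, a histone demethylase gene, had 0.47, 0.20 and 0.69 (adjusted p = 0.00240, 0.230 and 4.96e-05), and Slc37a3 passed in no tissue. Rab19, the third neighbour there, had changes of 0.49, 1.75 and 2.25 (adjusted p = 0.0651, 8.07e-06 and 1.46e-07). The nearest tested neighbour of Parp11 was Ccnd2, a cyclin gene 294647 bases away, with changes of −0.17, 0.62 and 1.74 (adjusted p = 0.427, 0.0127 and 1.70e-07), and Tigar, farther out, passed in no tissue. Next to Parp10, Plec did not pass in any tissue, and Grina rose by 0.74 in implanted ECs (adjusted p = 6.58e-05) and had changes of 0.07 and 0.06 in the other tissues (adjusted p = 0.693 and 0.772). Eppk1, a gene of the plakin family 110979 bases from Parp10, rose by 1.29 in normal and by 0.55 in implanted ECs (adjusted p = 6.90e-05 and 0.0229) and was at 0.20 in MMTV-PyMT ECs (adjusted p = 0.518).

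The other 11 genes of the PARP family were all tested. There were 2 rises and 1 fall among them in normal ECs, 2 rises in MMTV-PyMT ECs, and 5 rises with 3 falls in implanted ECs, with median log2 changes of −0.17, 0.02 and 0.12. Rises made up 13.7%, 7.42% and 20.3% of all tested genes in the same order, and the share of falls was not computed. Zc3hav1, the zinc finger antiviral protein, rose in all 3 tissues by 1.74, 1.98 and 1.97 (adjusted p = 4.24e-09, 4.02e-10 and 3.38e-10, limma). Tiparp, a PARP known to respond to the aryl hydrocarbon receptor and to restrain type I interferon, rose by 0.94, 1.20 and 1.91 (adjusted p = 0.00175, 0.000537 and 1.14e-06). At the low end, Parp1, the main DNA damage PARP, fell by 0.64 in normal ECs (adjusted p = 0.00881) and by 0.53 in implanted ECs (adjusted p = 0.0205), and its change in MMTV-PyMT ECs was −0.20 (adjusted p = 0.490). Parp16, a PARP of the endoplasmic reticulum, fell by 0.61 in implanted ECs (adjusted p = 0.00161) and was at −0.18 and −0.41 in normal and MMTV-PyMT ECs (adjusted p = 0.317 and 0.0532). Parp8, chosen after its values were seen, rose by 1.36 in implanted ECs (adjusted p = 1.66e-07), with changes of 0.20 and 0.25 in normal and MMTV-PyMT ECs (adjusted p = 0.209 and 0.188). Its response in implanted ECs exceeded that in normal ECs by 1.16 ± 0.17 (SE, adjusted p = 0.000205) and that in MMTV-PyMT ECs by 1.11 ± 0.17 (adjusted p = 0.000580).

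**Figure D5:**
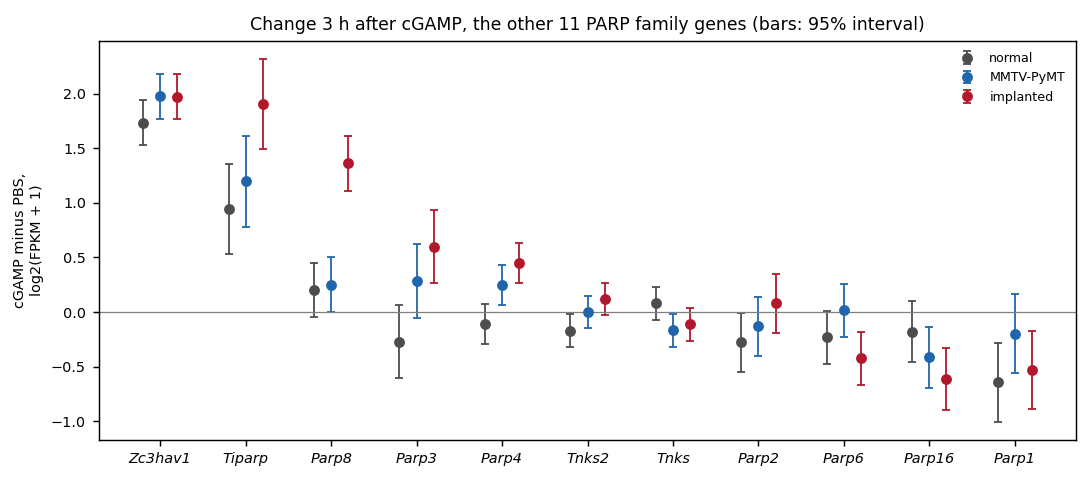
Log2 change from PBS to cGAMP of the other 11 PARP family genes in the 3 tissues, ordered by their mean change, with bars for 95% intervals. Zc3hav1 and Tiparp lie at or above 0.94 in each tissue, Parp8 stands apart in implanted ECs at 1.36, and Parp1 is lowest on average.

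The 4 other deltex ligases were all tested. Dtx3 rose in normal ECs by 0.69 (adjusted p = 0.00719, limma) and did not pass in the tumours, with changes of −0.26 and 0.21. Dtx1, a regulator of Notch signalling, fell by 0.89 in normal and by 0.99 in implanted ECs (adjusted p = 0.000922 and 0.000218) and was at −0.21 in MMTV-PyMT ECs (adjusted p = 0.463). Dtx2 and Dtx4 did not pass in any tissue. None of these 4 passed as higher in the tumours, beside 7.42% and 20.3% of all tested genes. Dtx3l rose there by 2.74 and 2.13.

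Of the genes that remove ADP-ribose from proteins or cleave it, 8 of the 11 listed were tested. None rose and 2 fell in normal ECs, none passed in MMTV-PyMT ECs, and implanted ECs had 1 rise and 1 fall. Median log2 changes were −0.30, −0.15 and 0.13. Over all tested genes the rises were 13.7%, 7.42% and 20.3% in the same order, and the share of falls was not computed. Parg, which degrades ADP-ribose chains, had changes of 0.05, 0.03 and 0.09 and passed in no tissue, nor did Macrod1, a macrodomain hydrolase, with 0.17, −0.42 and 0.28. Adprhl2, which takes ADP-ribose off serines, had changes of −0.36, −0.17 and −0.53 and passed in implanted ECs (adjusted p = 0.0259, limma). Nudt16 fell by 0.67 in normal ECs (adjusted p = 0.00231).

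NAD is the substrate of the PARPs, and 9 of 13 listed genes of its supply and use were tested. There were 2 rises and 4 falls in normal ECs, 1 rise in MMTV-PyMT ECs and 3 rises in implanted ECs, with median log2 changes of −0.23, 0.03 and 0.05. Rises made up 13.7%, 7.42% and 20.3% of all tested genes in the same order, and the share of falls was not computed. Nampt, the rate-limiting enzyme of NAD salvage, rose in all 3 tissues. Its mean went from 18.8 to 46.7 FPKM in normal, from 13.4 to 31.4 FPKM in MMTV-PyMT and from 16.3 to 96.1 FPKM in implanted ECs, with log2 changes of 1.26, 1.16 and 2.49 (adjusted p = 1.23e-06, 2.96e-06 and 2.35e-10, limma). Its response in implanted ECs exceeded that in normal ECs by 1.23 ± 0.17 (SE, adjusted p = 0.000130) and that in MMTV-PyMT ECs by 1.33 ± 0.17 (adjusted p = 0.000161). Sirt1, a deacetylase that uses NAD, rose by 0.51 in normal and by 1.12 in implanted ECs (adjusted p = 0.00900 and 6.05e-06, limma). Its change in MMTV-PyMT ECs was 0.10 (adjusted p = 0.699). At the low end, Nmnat1 fell by 0.35 in normal ECs (adjusted p = 0.0296), and Nadsyn1 passed in no tissue.

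In the signalling chain of the type I interferon receptor, all 7 genes were tested. There were 4 rises and 2 falls in normal ECs, 4 rises in MMTV-PyMT ECs, and 5 rises and 1 fall in implanted ECs. Median log2 changes were 0.29, 0.40 and 0.76. Over all tested genes the rises were 13.7%, 7.42% and 20.3% in the same order, and the share of falls was not computed. Stat2 rose by 2.04, 2.80 and 2.25 (adjusted p = 1.46e-08, 1.88e-10 and 1.33e-09, limma). Ifnar1, the receptor chain, fell by 0.32 in normal and by 0.42 in implanted ECs (adjusted p = 0.0363 and 0.00592), and Tyk2, a kinase bound to it, fell by 0.83 in normal ECs (adjusted p = 4.16e-05). All 8 interferon response genes named by the study rose in each tissue, with median log2 changes of 3.54, 4.50 and 2.63. The study took these names from single-cell sequencing of tumour ECs, not from these libraries. They ran from Phf11d, at 1.23, 1.88 and 2.42, and Irf7, at 2.39, 2.25 and 2.09, to Ccl5, at 3.83, 5.68 and 4.91, and Cxcl10, at 7.67, 7.73 and 6.07.

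Genes whose pattern was most like that of a member were sought with the Pearson correlation of log2(FPKM + 1) over the 18 libraries, which share 6 groups and are described without a test. For Dtx3l they were Stat2 (0.997), Oasl2 (0.994) and Ifi47 (0.993). For Parp14 they were Cd274 (0.995), which encodes the immune checkpoint ligand PD-L1, Znfx1 (0.993) and Samd9l (0.992), and for Parp9 they were Ddx58 (0.994), which encodes the RNA sensor RIG-I, Pml (0.992) and Ifi202b (0.991). Parp12 was most like Mov10 (0.993), Rnf213 (0.989) and Ifi35 (0.989), and Parp10 most like Tbrg1 (0.990), Lgals9 (0.986) and Ifi211 (0.985). Parp11 was most like Ankfy1 (0.982), Slc25a22 (0.980) and 1110038F14Rik (0.978), none of which was in the lists above. Among the 6 genes, the correlation over the 18 libraries was 0.985 to 0.992 between Parp9, Dtx3l and Parp14, 0.980 between Parp10 and Parp12, and 0.767 between Parp14 and Parp11, the lowest of the 15 pairs.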

How the data were processed

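Bulk RNA-seq libraries of sorted ECs were grouped by the labels. According to the study's methods, reads were aligned to mm10 with STAR 2.7 and counted with HTSeq. The authors deposited FPKM for 16248 genes in 18 columns, and 6 columns that name only the treatment were assigned to the normal fat pad by elimination. The deposited FPKM were whole multiples of 1 read for 16239 genes (99.94%, within 0.02 reads), which gave recovered reads, and intervals on them would cover counting error only. Genes with FPKM of at least 1 in at least 3 libraries were fitted as log2(FPKM + 1) in limma 3.58.1 (R 4.3.3; trend, 2-sided, 9 contrasts over all 18 libraries), with Benjamini-Hochberg adjustment over 13983 genes. Checks on simulated data were run first. Replicate pairs differed by 4.07 to 31.2 in chi-square per gene, so none was a repeat. The study gives 3 mice per group, and which experiment each library came from was not stated, so p-values measure the spread between libraries. The named genes were the 6 members, for each member the 3 genes most correlated with it, the 2 highest and 2 lowest genes of each list over 4 genes, and the 3 nearest coding neighbours on each side in GENCODE M21, with 1 older symbol matched through RefSeq. A gene that this rule names and the neighbours that were not tested are not reported here. Promoter windows are RefSeq's. Alternatives were other pseudocounts, filters, scalings, voom, a replicate block, fewer tissues, a fold limit and leaving out each library. The members and lists were chosen with earlier results of these data known.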

Additional observations from a re-analysis of the deposited data

Results flagged for a closer look

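These differences of the cGAMP response between tissues passed the test of the difference itself (limma with Benjamini-Hochberg adjustment, log2 scale). Implanted ECs responded more than normal ECs for Parp11 (2.13), Parp12 (1.22) and Parp10 (1.18). MMTV-PyMT ECs responded more than normal ECs for Parp14 (1.07), Parp12 (0.88) and Dtx3l (0.76). Implanted ECs responded more than MMTV-PyMT ECs for Parp11 (1.45). No test for a single deviating library was run, since the groups hold 3 libraries each.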

How the results depend on the processing

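Each count of genes passing and each log2 change was recomputed under every alternative and with each of the 18 libraries left out. The changes from PBS to cGAMP kept their direction throughout. The number passing stayed at 5 in normal ECs, was 5 or 6 in the spontaneous tumours and 6 in implanted ones, except that with a mean FPKM of at least 5 Parp11 was no longer tested and 5 passed there. Counts of differences between tissues moved more. For implanted against normal ECs, 3 passed, against 1 with quantile normalization (Parp11) and 3 to 4 with single libraries left out. For MMTV-PyMT against normal ECs, 3 passed, against 1 with scaling by total reads, 1 with the replicate block, 1 with a log2 change of at least 1, and 1 to 4 with single libraries left out. For implanted against MMTV-PyMT ECs, 1 passed, against 3 with scaling by total reads, 3 with quantile normalization, and 1 to 2 with single libraries left out. The genes added by these scalings, Dtx3l and Parp14, responded less in implanted ECs, whereas Parp11 responded more. Under PBS, a log2 change of at least 1 left 2 of 6 for implanted against normal ECs and 1 of 4 for MMTV-PyMT against normal ECs, and leaving out single libraries left 5 to 6 and 3 to 4. Scaling by total reads moved the median of all tested genes to −0.05, −0.14 and −0.25 for the cGAMP effect in normal, spontaneous and implanted tissue. The members' changes in implanted ECs were then 1.77 to 2.59, so 2.02 to 2.84 above that median. Some differences that had not passed changed sign and did not pass. The implanted against normal difference of Dtx3l was −0.16 with scaling by total reads, −0.28 with quantile normalization and −0.01 to 0.26 with single libraries left out, and that of Parp14 was −0.039 with quantile normalization. The implanted against MMTV-PyMT difference of Parp9 was −0.039 with a pseudocount of 0.1, −0.18 with scaling by total reads, −0.51 with quantile normalization, −0.048 with voom on recovered reads and −0.14 to 0.16 with single libraries left out, and that of Parp12 was −0.14 with quantile normalization. The cause was not tested. The change of the Dtx3l to Parp9 log2 ratio stayed between 0.33 and 0.38. With the replicate block it was 0.35 (exact sign-flip permutation, p = 0.0156). The block was tried because replicate numbers recur across groups. Deviations of same-numbered PBS and cGAMP libraries of a tissue had correlations of −0.29 to 0.26. Libraries of different tissues were not compared in this way, so the check cannot tell if the numbers pair the libraries. The block also ended the call for Parp11 under PBS, implanted against normal (0.55, adjusted p = 0.0536, limma). With 3 libraries per group, small differences between tissues may be missed.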
